A study of Mus musculus with 12 samples.

Results

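The 8 genes Lamp1, Lamp2, Cd63, Scarb2, Laptm4a, Laptm4b, Tmem192 and Pip4p1 encode proteins of the lysosomal membrane, and they were followed here through maps of where the transcription factor USF2 bound in mouse embryonic fibroblasts. They are 8 of 21887 protein-coding genes on chromosomes 1 to 19, X and Y. The set was named with earlier results of these data known, so its counts beside the share of all genes are a description. A gene counted as called in a peak list when the summit of a peak, its point of highest signal, lay within 1000 bp of either end of the gene's annotated span or inside the span. By this rule 5 of the 8 genes had a peak in at least 1 list, against 10.5% of all protein-coding genes, while Lamp2, Scarb2 and Laptm4a had none. Lamp1 gave the strongest peak of each list by fold enrichment over the local background and by q-value.

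The data are from ChIP-seq: crosslinked chromatin is sheared, an antibody collects the fragments that carry USF2, and their DNA is sequenced. USF2 was precipitated from wild-type mouse embryonic fibroblasts (MEFs) after glucose starvation and from wild-type MEFs in normal culture, with 2 libraries of each condition. The labels give no length of starvation, no sugar concentration and no passage of the cells, and do not say whether the 2 libraries came from separate cultures, so their spread may be technical. Of the 12 samples of the series, the inputs and the H3K27ac libraries from Usf2 knockout and wild-type cells were not analysed here.

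The lysosomal membrane is lined by heavily glycosylated proteins that shield it from the enzymes inside, and it carries transporters, receptors and adaptors that tie the organelle to motors and to nutrient sensing. USF2 is a basic helix-loop-helix leucine zipper protein that binds the E-box, the palindrome CACGTG. The same core is read by TFEB and its relatives, the best known activators of lysosomal genes.

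The sequences before the start sites are shown first because the 2 members found with a CACGTG E-box there, Lamp1 and Pip4p1, were among the 3 called in all 4 lists. Laptm4b, also called in all 4 lists, had no promoter sequence here and was not searched. Lamp2, a paralogue of Lamp1, and Scarb2 are shown as members without a call. The sequences are from RefSeq, build GRCm38.p6, and are written 5′ to 3′ in the direction of transcription. Capitals mark CACGTG and the variant core CACATG, which reads CATGTG on the other strand. Position -1 is the base before the RefSeq start site.
Lamp1, chr8:13159061-13159160, plus strand, positions -100 to -1: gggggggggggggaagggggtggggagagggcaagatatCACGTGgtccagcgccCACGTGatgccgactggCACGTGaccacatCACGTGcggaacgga
Pip4p1, chr14:50931011-50931099, minus strand, positions -250 to -162: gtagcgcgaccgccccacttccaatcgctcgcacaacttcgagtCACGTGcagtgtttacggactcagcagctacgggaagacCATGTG
Pip4p1, chr14:50930886-50930915, minus strand, positions -66 to -37: gggccagcctgtCACGTGagcggggcggca
Lamp2, chrX:38456461-38456560, minus strand, positions -100 to -1: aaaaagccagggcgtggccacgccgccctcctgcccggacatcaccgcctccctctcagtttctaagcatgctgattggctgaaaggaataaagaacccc
Scarb2, chr5:92505658-92505757, minus strand, positions -100 to -1: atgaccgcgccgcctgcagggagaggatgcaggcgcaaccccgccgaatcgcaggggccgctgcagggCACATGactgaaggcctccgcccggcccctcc

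The 2 starved lists held 825 and 1178 peaks and the 2 normal lists 1645 and 2124. The narrowest peak was 306 bp wide in the starved and 152 bp wide in the normal lists, so the 2 conditions were called at different widths. Each peak carries the authors' fold enrichment and a −log10 q-value. The fold enrichment is the ratio of the read pileup at the summit to the local background, with 1 added to each. Most backgrounds are below 1 read, so it is smaller than the plain ratio of reads. The pileup and background were recovered as numbers of reads from the fold enrichment and p-value. The lowest background was 0.131 and 0.133 reads in the starved and 0.0979 reads in both normal lists. Read depth was not measured here. Because peak number, width and lowest background differ, fold enrichments, pileups and ranks are set side by side across conditions. No change was computed from them. Intervals of pileups are 95% exact Poisson intervals and cover counting error only. No expression was measured in these libraries, so the fibroblast label could not be checked against marker genes.

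Lamp1 encodes a glycoprotein that is among the most abundant of the lysosomal membrane, a single-pass protein with a large sugar-coated domain inside the organelle. Its gene lies on chromosome 8 (13159161 to 13175338, plus strand). The fold enrichment of its peak was 25.5 and 32.3 in starved 1 and 2, against 47.0 and 44.1 in normal 1 and 2. The −log10 q was 63.6 and 77.8 in the starved lists and 123.1 and 112.9 in the normal lists. Both measures were lower in the starved lists without overlap, in lists of different peak number, width and lowest background. Lamp1 ranked number 1 in each of the 4 lists by either measure.

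The lead of Lamp1 over the next peak of the same list varied. In starved 1 the second highest fold enrichment was 24.7, at Rad9a, which encodes a DNA damage checkpoint protein. In starved 2 the second highest value was 20.6 and in normal 2 it was 30.8, both at Fam118b. In normal 1 the second highest value was 31.4. Lamp1 thus led by a narrow margin in starved 1 and by a wider one in the other 3 lists.

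The recovered pileup at the Lamp1 summit was 56 reads (95% interval 42.3 to 72.7) in starved 1 and 60 reads (45.8 to 77.2) in starved 2, against 80 reads (63.4 to 99.6) in normal 1 and 75 reads (59.0 to 94.0) in normal 2. By pileup alone Lamp1 was second in both starved lists, behind peaks of 64 and 61 reads, and first in both normal lists. The local background under it was 1.23 and 0.889 reads in the starved lists and 0.722 reads in both normal lists. That background was 9.42 and 6.69 times the lowest of the list in starved 1 and 2, and 7.37 times the lowest in each normal list.

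The 4 Lamp1 summits lay within 43 bp of each other, on a cluster of 4 E-boxes. The E-boxes cover positions -61 to -56, -45 to -40, -28 to -23 and -15 to -10. The summit was at -41 in starved 1, inside the second E-box from upstream, and at -58 in starved 2, inside the first. It was at -15 in normal 1, inside the fourth, and at -29 in normal 2, which is 1 bp from the third. Each peak covered all 4 E-boxes, with widths of 680 and 643 bp in the starved lists and 339 and 352 bp in the normal lists. Each of the 4 cores is preceded or followed by the base that extends it to TCACGTG, read on either strand. At these widths the E-boxes of the cluster cannot be told apart as binding positions.

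**Figure D1:**
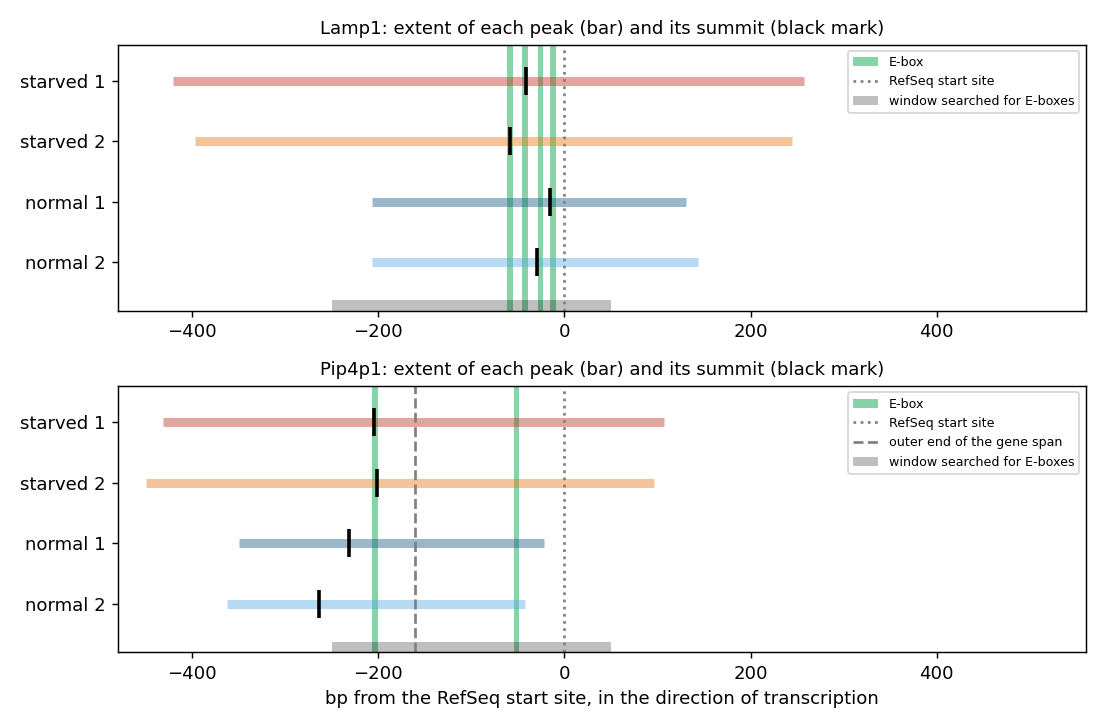
Peaks at Lamp1 (top) and Pip4p1 (bottom) in the 4 lists, with starved above normal; the x axis is the distance in bp from the RefSeq start site in the direction of transcription. Bars are peak extents, black marks are summits and green bands are E-boxes found in the window shown in grey. The 4 Lamp1 summits lie between -58 and -15, among the 4 E-boxes, and the starved Pip4p1 summits lie on the outer of 2 E-boxes.

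Lamp2 encodes the second major lysosomal glycoprotein, one isoform of which is the receptor of chaperone-mediated autophagy. The gene lies on chromosome X (38399647 to 38456460, minus strand) and was called in none of the 4 lists. The nearest summit to its span was 12178944 and 8829363 bp away in starved 1 and 2 and 9940263 and 12178931 bp away in normal 1 and 2. Its promoter window, from 250 bases before to 50 after the start site, holds neither CACGTG nor CACATG on either strand. A missing call says that no peak passed the caller's threshold and is not a measure of absent binding.

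Cd63 encodes a tetraspanin of late endosomes, lysosomes and the vesicles released from them. Its gene lies on chromosome 10 (128896231 to 128912822, plus strand). It was called in both starved lists and in neither normal list, a pattern found for 0.946% of protein-coding genes. The fold enrichment was 6.63 and 7.41 in starved 1 and 2, with −log10 q of 6.11 and 7.33, and the peak ranked 277 of 825 and 250 of 1178. The pileup was 13 reads in each (95% interval 6.92 to 22.2), so the call rests on few reads.

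The Cd63 summits lay inside the gene, 3106 and 3210 bp from its nearer end. The promoter table has 1 start site for Cd63, and from it the summits were 371 and 267 bp downstream. That start site lies 13114 bp inside the gene span, so the peak would be missed by a count of gene ends alone. The nearest summit in normal 1 was 10767 bp outside the gene, at Bloc1s1, a subunit of a complex for lysosome-related organelles. In normal 2 it was 655210 bp away. The window of Cd63 holds no CACGTG, and its summits lie beyond that window.

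Scarb2 encodes LIMP-2, the receptor that carries the enzyme glucocerebrosidase to lysosomes. The gene, on chromosome 5 (92441311 to 92505657, minus strand), was called in no list. The nearest summit was 6240 and 6203 bp beyond its far end in starved 1 and 2 and 6171 and 6163 bp beyond it in normal 1 and 2. That peak lay 188, 151, 119 and 111 bp from an end of Nup54, a nuclear pore gene, in the same order of lists, and its summit was inside Nup54. It is at the end of Scarb2 away from the start site. The window of Scarb2 holds 1 CACATG, at positions -32 to -27, and no CACGTG.

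Laptm4a and Laptm4b encode paralogous 4-span proteins of late endosomes and lysosomes. LAPTM4A is known in human cells for its part in glycosphingolipid synthesis, and LAPTM4B for bringing a leucine transporter to lysosomes. The 2 paralogues differed in their calls. Laptm4b (chromosome 15, 34238026 to 34284295) was called in all 4 lists, and Laptm4a (chromosome 12, 8921307 to 8938742, plus strand) in none.

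The fold enrichment at Laptm4b was 8.05 and 8.51 in starved 1 and 2, against 11.6 and 9.60 in normal 1 and 2. Its −log10 q was 8.96 and 9.35 in the starved and 17.0 and 13.4 in the normal lists. The peak ranked 181 of 825 and 185 of 1178 in the starved lists, and 97 of 1645 and 163 of 2124 in the normal lists. The values of the starved lists lay below those of the normal lists without overlap, and the ranks are from lists of unequal length. The pileup was 15 reads (95% interval 8.40 to 24.7) and 14 reads (7.65 to 23.5) in the starved lists, against 21 reads (13.0 to 32.1) and 20 reads (12.2 to 30.9) in the normal lists. These intervals overlapped.

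The 4 Laptm4b summits lay within 37 bp of each other, at 105 and 68 bp from the lower-coordinate end of the gene in the starved lists and at 78 and 75 bp from it in the normal lists. No promoter sequence of Laptm4b was used here. For Laptm4a the nearest summit was 318955 and 242567 bp away in the starved lists and 3863810 and 1167240 bp away in the normal lists. The Laptm4a window holds neither core, and at 38.0% it has the lowest GC content of the 7 member windows. The median of all windows was 52.7%.

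Tmem192 encodes a lysosomal transmembrane protein that is widely used as a handle to purify intact lysosomes. The gene lies on chromosome 8 (64947149 to 64969036, plus strand). It was called in both normal lists and in neither starved list, a pattern of 2.33% of protein-coding genes. Its stronger peak had a fold enrichment of 6.88 and 7.41 in normal 1 and 2 and a −log10 q of 5.99 and 7.28, and it ranked 367 of 1645 and 438 of 2124. The pileup was 12 reads (95% interval 6.20 to 21.0) and 13 reads (6.92 to 22.2). In the starved lists the nearest summit was 4144225 and 4404593 bp outside the gene.

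The stronger Tmem192 summits lay 421 and 428 bp downstream of the start site, and the window before it holds neither core. A second, weak peak lay 505 bp beyond the far end of the gene in both normal lists, with a fold enrichment of 4.63 and a pileup of 5 reads (95% interval 1.62 to 11.7) in each. This weak peak had the same start, end and summit in both lists, and the stronger peak shared its end coordinate. Both edges were identical in 7.55% of the overlapping peak pairs of the starved lists and in 25.6% of those of the normal lists. Without peaks that have both edges identical, a setting chosen after the data were seen, the stronger peak stayed and both normal lists still called Tmem192.

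Pip4p1, also called Tmem55b, encodes a lysosomal protein that recruits an adaptor for the motor dynein and so moves lysosomes towards the cell centre. The gene is the shortest of the 8, at 3796 bp (chromosome 14, 50927215 to 50931010, minus strand). Its fold enrichment was 9.26 and 8.46 in starved 1 and 2, against 9.33 and 10.2 in normal 1 and 2. The −log10 q was 26.4 and 23.6 in the starved lists, against 15.9 and 19.1 in the normal lists. The fold enrichments were slightly lower, and the −log10 q values higher, in the starved lists, in both cases without overlap.

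The rank of Pip4p1 depended on the measure. By −log10 q it was 18 of 825 and 31 of 1178 in starved 1 and 2, and 117 of 1645 and 89 of 2124 in normal 1 and 2. By fold enrichment it was 107 and 154 in the starved lists, and 174 and 154 in the normal lists. The recovered reads show both sides of this ratio. The pileup was 46 reads (95% interval 33.7 to 61.4) and 44 reads (32.0 to 59.1) in the starved lists, against 26 reads (17.0 to 38.1) and 29 reads (19.4 to 41.6) in the normal lists.

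The local background at Pip4p1 was 4.08 and 4.32 reads in starved 1 and 2, which were the fourth and the third highest of their lists. In normal 1 and 2 it was 1.89 and 1.94 reads, ranking 46 and 67. It stood at 31.1 and 32.5 times the lowest background of the list in the starved lists, and at 19.4 and 19.8 times in the normal lists. Pip4p1 thus combined a high pileup with a high local background, while Lamp1 had a higher pileup in every list over a lower background.

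**Figure D2:**
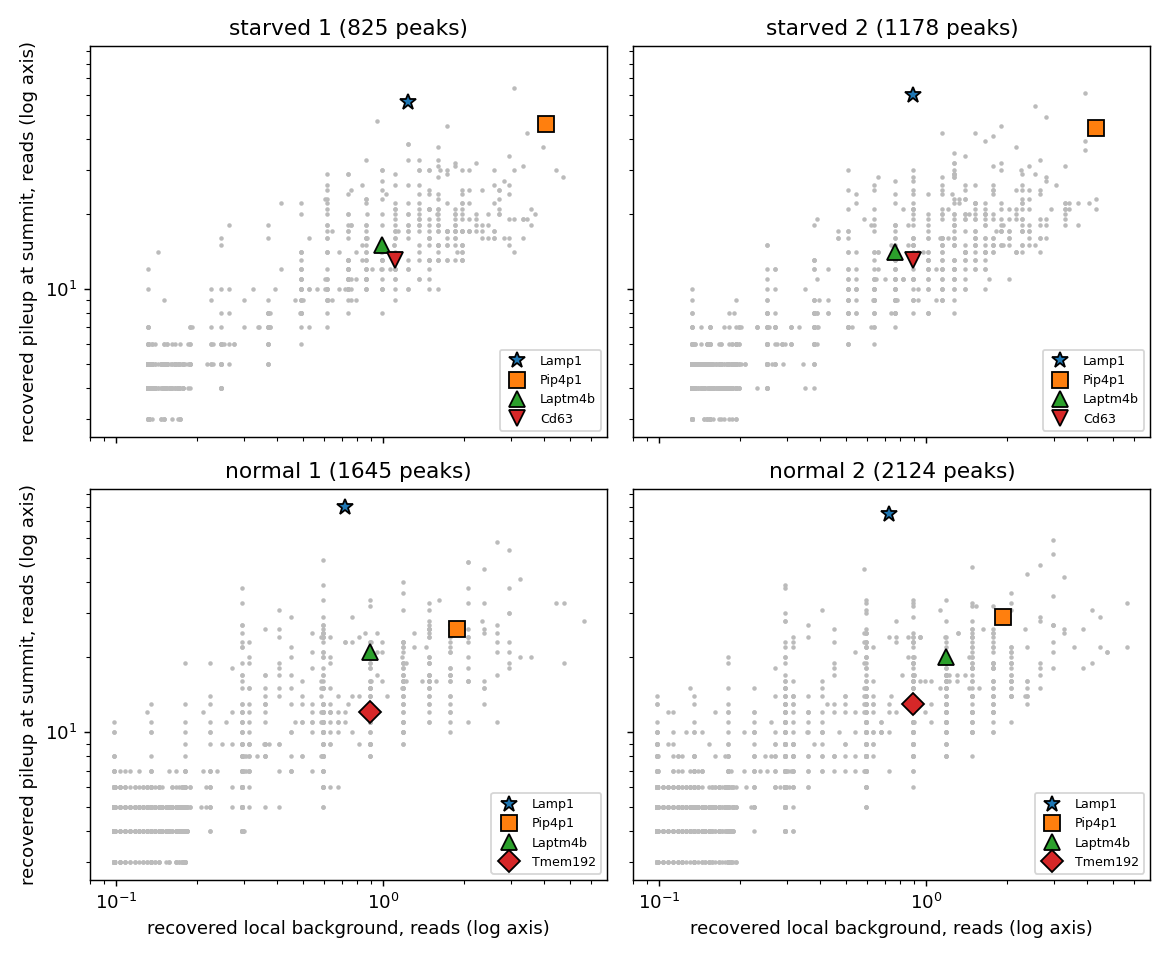
Recovered read pileup at the summit (y axis, log) against the recovered local background (x axis, log) for each peak of the 4 lists, with starved lists in the upper row; grey points are all peaks and symbols are the best peak of each called member. Lamp1 stands at 56 and 60 reads in the starved and 80 and 75 reads in the normal lists, and Pip4p1 lies far to the right in the starved lists, at 4.08 and 4.32 background reads.

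The Pip4p1 window holds 2 E-boxes, at positions -206 to -201 and -54 to -49, and 1 CACATG core read on the other strand, at -167 to -162. Its RefSeq start site lies 161 bp inside the gene span, so the outer E-box is outside the annotated gene and the inner one is inside it. The summit was at -205 in starved 1 and -201 in starved 2, both inside the outer E-box. It was at -232 in normal 1, which is 26 bp from that E-box, and at -264 in normal 2, which is 58 bp from it and beyond the window, where no sequence was searched. All 4 peaks covered both E-boxes.

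**Figure D3:**
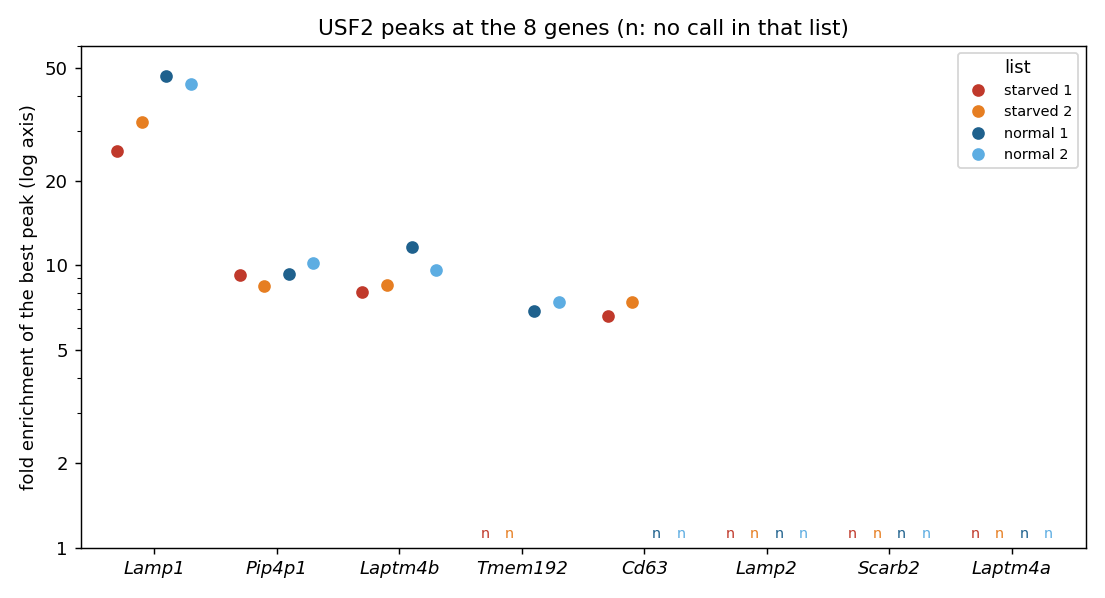
Fold enrichment (y axis, log) of the best peak of each of the 8 genes in the 4 lists, as deposited, with starved lists left of normal lists; the letter n marks a list without a call. Lamp1 lies between 25.5 and 47.0 and the other called genes between 6.63 and 11.6, and Lamp2, Scarb2 and Laptm4a have no value.

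Each list called 4 of the 8 members. The set was named with earlier results of these data known, so the shares of all genes are given for description only. Starved 1 and 2 called Lamp1, Cd63, Laptm4b and Pip4p1, where 3.23% and 4.1% of all protein-coding genes were called. Normal 1 and 2 called Lamp1, Laptm4b, Tmem192 and Pip4p1, where the shares of all genes were 5.46% and 6.5%. The mean number of called members was the same in both conditions (difference 0; exact two-sided permutation test over 6 labelings of the lists, p = 1; 2 against 2 lists cannot go below 0.333). When gene ends alone were counted, 3 members were called in each starved and 4 in each normal list (exact permutation p = 0.333), where 2.01% and 2.3% of all protein-coding genes were called in starved 1 and 2 and 2.54% and 2.68% in normal 1 and 2.

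Both starved lists called 4 members (2.48% of all protein-coding genes), both normal lists also 4 (4.08%), and all 4 lists called 3 (1.35%). These counts, too, describe a set named with earlier results known. The spans of the 8 genes range in length from 3796 to 64347 bp, and a longer gene has more room for a peak inside it. Of the 3 genes called in all lists, the smallest fold enrichment over the lists was 25.5 for Lamp1, 8.46 for Pip4p1 and 8.05 for Laptm4b. The last 2 overlapped in range, from 8.46 to 10.2 and from 8.05 to 11.6. No other annotated gene of any kind had an end within 1000 bp of a member's summit.

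The genes closest to each of these 3 in rank were sought among the 295 protein-coding genes called in all 4 lists. Closeness was the mean absolute difference over the 4 lists in the rank of the best peak by −log10 q, given as a percentage of the list. For Lamp1 they included Washc2 (0.466 percentage points), of the endosomal WASH complex, and Fam118b (0.706). For Pip4p1 they included Clcn6 (0.829), a late endosomal chloride/proton exchanger, and Rmc1 (0.904), a late endosomal trafficking factor. For Laptm4b they were Kansl1l (1.67), Lnpk (1.98), which shapes the endoplasmic reticulum, and Commd8 (2.09), of the endosomal COMMD family.

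More than 1 E-box was uncommon before mouse genes. Among 32851 promoter windows, 7.15% held CACGTG, 3.77% held the overlapping longer form TCACGTG or its reverse complement, and 14.2% held CACATG or its reverse complement. Of the 7 members with a window, Lamp1 and Pip4p1 held CACGTG and also TCACGTG, and Scarb2 and Pip4p1 held CACATG. There were 2154 windows with 1 CACGTG, 166 with 2, 21 with 3 and 8 with 4 or more, the class of Lamp1. Some genes have several overlapping windows, which are not independent.

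Over all windows, the share with a USF2 summit went with the number of E-boxes. All 4 lists had a summit in 0.0393% of windows without an E-box (12 of 30502; 95% exact interval 0.0203 to 0.0687) and in 3.48% of those with 1 (75 of 2154; 2.75 to 4.35). The share was 31.9% with 2 (53 of 166; 24.9 to 39.6), 28.6% with 3 (6 of 21; 11.3 to 52.2) and 50% with 4 or more (4 of 8; 15.7 to 84.3). The intervals of the last 3 classes overlapped. In the highest class 3 of the 8 windows overlap at the predicted gene Gm40008, so its share and interval count windows that are not independent. Pip4p1 belongs to the class with 2, although its normal 2 summit fell outside the window. Lamp1 is one of the 4 called windows in the highest class.

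Where a summit and an E-box shared a window, the summit was a median of 17 and 20 bp from the nearest E-box in starved 1 and 2 (217 and 237 summits) and 10 bp in each normal list (219 and 220 summits). The Lamp1 summits, at 0, 0, 0 and 1 bp in starved 1, starved 2, normal 1 and normal 2, were closer than the median in each list. With 4 E-boxes in a short stretch, a summit there is close to one of them wherever it falls.

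**Figure D4:**
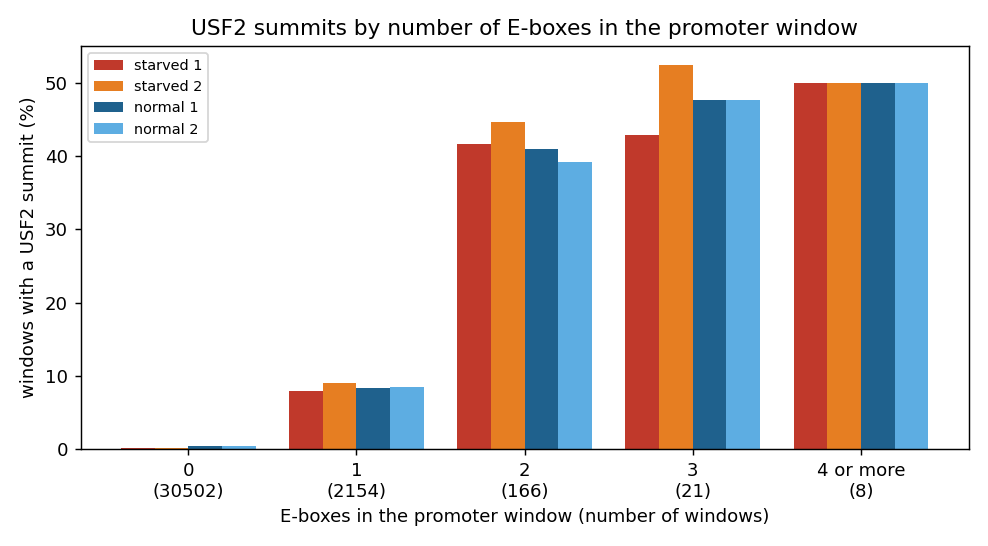
Share of promoter windows with a USF2 summit (y axis, %, from 0) by the number of E-boxes in the window (x axis, with the number of windows), for each list, starved left of normal. The share is below 1% without an E-box, between 7.99% and 9.05% with 1 and between 39.2% and 44.6% with 2, and the last class holds 8 windows including that of Lamp1.

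A list of family relatives held 28 genes of the LAMP, LAPTM, PIP4P, CD36 and tetraspanin families, among them Lamp3, Lamp5, Cd68, Laptm5 and Pip4p2. Of these, 4 were called in any list (10.5% of all protein-coding genes), none at a gene end (4.05% of all) and none in both starved lists (2.48% of all). With 28 genes these zeros are near the shares of all genes, and nothing is read from them. Scarb1, a lipoprotein receptor related to Scarb2, and the tetraspanin gene Tspan33 had peaks inside the gene in both normal lists. The fold enrichments in normal 1 and 2 were 6.38 and 5.46 for Scarb1 and 4.55 and 5.46 for Tspan33. Tspan14 had 4.21 in starved 2 and, at another position, 10.02 in normal 2, and Tspan9 had 4.40 in normal 2 alone. The pileup in normal 1 and 2 was only 6 and 5 reads at Scarb1 and 4 and 5 reads at Tspan33. The peak of each of these genes had the same start, end and summit in both normal lists.

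Among 48 other genes of the lysosomal membrane, 11 were called in any list (10.5% of all protein-coding genes), 8 of them at a gene end (4.05% of all). By the full rule, 7 were called in both starved lists (2.48%). There were 8 called in both normal lists (4.08%) and 5 in all 4 (1.35%). This list was also written with earlier results of these data known. The 5 were Slc36a1, an amino acid transporter, Clcn7, a chloride/proton exchanger, Mfsd1, a dipeptide transporter, Mcoln1, a cation channel, and Cd164, a sialomucin. Slc36a1 had fold enrichments of 14.1 and 13.8 in the starved and 17.5 and 18.5 in the normal lists. Clcn7 had 11.4 and 13.2 in the starved and 18.5 and 17.99 in the normal lists. The summits of both genes lay within 25 bp of a gene end.

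Mfsd1 had fold enrichments of 15.4 and 11.01 in the starved and 15.2 and 17.5 in the normal lists, with overlapping ranges. Mcoln1 had 7.42 and 7.17 in the starved and 12.7 and 12.02 in the normal lists. Cd164 had 12.8 and 13.5 in the starved lists, against 6.84 and 5.39 in the normal lists. Lamp1 ranked first by fold enrichment in each list, so all of these 5 necessarily lay below it. Slc36a1, Clcn7, Mfsd1 and Mcoln1 hold at least 2 E-boxes in their windows, with 5 at Mfsd1. Cd164 holds 1, and only its starved 1 summit fell inside its window. Cln3, which encodes another lysosomal membrane protein, holds 2 and had no summit in its window.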

How the data were processed

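The 4 deposited USF2 peak lists were used, 1 per library, not pooled by the authors. Per the submitters' processing notes, reads were handled on build GRCm38 with Bowtie2 2.5.1 and deepTools 3.5.1 and MACS2 2.2.7.1. Parameters and the use of inputs as control are not given in the sources used here. In the deposited lists the fold enrichment is a ratio, the −log10 values are of the caller's p and q, and the deposited score (not used) is derived from the q-value.

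Computed here were summit positions, ranks within a list on the assembled chromosomes, and gene calls from RefSeq GRCm38.p6 spans. The whole-number pileup k and background b were solved from fold (k + 1)/(b + 1) and the Poisson tail. Each peak's p was met to within 0.001 in −log10 units. Both steps were tested on simulated data, but the recovery only at backgrounds above those of most peaks here. The median background was 0.370 and 0.254 reads in starved 1 and 2 and 0.144 and 0.162 reads in normal 1 and 2. These medians lie below the simulated range, and the Pip4p1 backgrounds of the starved lists lie slightly above it. The recovery was not tested at such backgrounds. E-boxes were searched on both strands of the RefSeq promoter windows with Python 3.11.15, numpy 2.4.6, pandas 2.3.3 and scipy 1.17.1.

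The members and gene lists were chosen with earlier results of these data known. Named genes were all 8 members, up to 5 of each comparison list called in most lists with the best worst rank, and 3 genes closest in rank to each member called in all 4 lists, some of which are not reported here. Genes named as second peaks, Bloc1s1, Nup54, Cln3 and the genes with 4 or more E-boxes were chosen after their values were seen. Conditions were compared over lists, since peaks of 1 list are not replicates.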

Additional observations from a re-analysis of the deposited data

How the results depend on the processing

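The counts of called members were 5 in any list, 4 in both starved lists, 4 in both normal lists and 3 in all 4 lists. Of the 7 members with a promoter window, 2 held an E-box. These counts stayed within 1.5 times under every alternative run for them. For calls, these were gene-end distances of 500 and 5000 bp, gene ends alone, −log10 q of at least 5 and lists cut to the length of the shortest. Further settings were any base of the peak, each list left out, and no peaks with both edges identical in the 2 lists of a condition. The last was added after the data were seen. For E-boxes, the alternative was no bases after the start site. All E-boxes found in the member windows lie before the start site, so that alternative could not change their count. Leaving out a list cannot lower the counts in both starved, both normal or all 4 lists. The 5000 bp distance and any base of the peak cannot lower any count of calls. In those settings only a rise could have shown. The difference in members called per list, 0, was -1 with gene ends alone, where the Cd63 peak inside the gene is not counted (exact permutation p = 0.333). It was 0 without each list in turn and also with labels permuted within replicate number (replicate block, exact p = 1 over 4 labelings). The count of relatives, 4, was 2 with −log10 q of at least 5, 2 with lists cut to the length of the shortest, 2 without identical edges and 0 with gene ends alone. Pileups of 5 to 21 reads at Cd63, Laptm4b and Tmem192 limit the precision there.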

Other observations

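Beside Lamp1, 3 genes had a promoter window with 4 or more E-boxes and a summit in all 4 lists. Cdk4, a kinase of cell cycle entry, held 4, Zmym6, a zinc finger gene, held 4, and Mfsd1 held 5. Nxf2, an X-linked relative of an mRNA export factor, held 5, and 3 overlapping windows of the predicted gene Gm40008 held 6 each, and none of these had a summit in any list.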
